A study of Daphnia magna with 15 samples.

Results

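The genome of the water flea Daphnia magna is compact, and neighbouring genes often lie a short distance apart. Water flea genomes are also known for genes copied in tandem, so that related genes can stand side by side on a chromosome. In a transcript assembly such as the one used here, a crowded stretch can hold separate genes, copies of a gene, or pieces of a single gene that the assembler did not join. The deposited table gives neither strand nor gene name, so these cases could not be told apart.

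The data are RNA sequencing libraries of whole neonates of a laboratory strain of D. magna, 48 to 72 h old, with 20 to 25 animals pooled in 25 mL of medium for 24 h. Etoposide, a topoisomerase II poison, was given at 300 ng/L, imatinib mesylate, a tyrosine kinase inhibitor, at 2000 ng/L, and cisplatinum (cisplatin), a platinum compound that crosslinks DNA, at 10 ng/L. Animals of the unexposed sets named control A and control B were held in medium without drug, and no group was fed during the 24 h. Each of the 5 groups had 3 libraries, all from whole animals, so fewer cells of a type and less RNA per cell cannot be told apart. The labels do not tie a control set to a drug. Nor do they say that replicates were separate cultures, so the p-values rest on a spread among libraries that may be technical.

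The regions described are dense runs of assembled loci. Loci with the same position were merged, which turned 18877 loci into 15883 intervals on 2545 scaffolds, and a run was kept where 8 or more intervals followed each other with every gap under 500 bp. This rule, which uses position alone, gave 179 intervals in 21 runs on 21 scaffolds, 1.13% of all intervals. They hold 220 of the assembled loci and 417 transcripts. Their level is the sum of FPKM, a level scaled to transcript length and library size, over the transcripts of the interval. Of the 179, 178 averaged 1 FPKM or more over the 15 libraries, and these were tested. The remaining interval, at 43899 to 45290 on scaffold01054, had a mean of 0.833 FPKM. The 608 intervals with gaps over 2 kb on both sides, here called isolated, served as comparison, and 560 of them were tested. None of the identifiers could be matched to a named gene, so the tissue label was not checked against marker genes and no protein or promoter sequence is given.

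The libraries differed in how many intervals they listed at 0 and in spread. Control A 1 listed 933 tested intervals at 0, of which 10 lay in dense runs, against 32 to 186 in the other 14 libraries, of which 0 or 1 lay in dense runs. The median SD within a group over dense-run intervals, on the log2(FPKM + 1) scale, was 0.246 in etoposide, 0.209 in imatinib, 0.118 in cisplatin, 0.312 in control A and 0.134 in control B.

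Of the 21 runs, 14 held 8 intervals, 3 held 9 and 4 held 10. They spanned 11.9 to 40 kb with a median of 21.9 kb, and the intervals covered 85.4% to 95.9% of a run. The 158 gaps inside runs measured 25 to 489 bp with a median of 229 bp, and 14 of them were under 100 bp. Over all 13338 gaps of the assembly the median was 622 bp, and 42.9% were under 500 bp, so short gaps are common and it is their unbroken succession that marks the runs. At the edge of the rule, 14 further runs of 7 intervals, 98 intervals in all, fell just outside it. The 33 gaps that flank the runs began at 553 bp and had a median of 1180 bp, and 9 run ends lay at the end of the table's intervals on that scaffold.

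**Figure D1:**
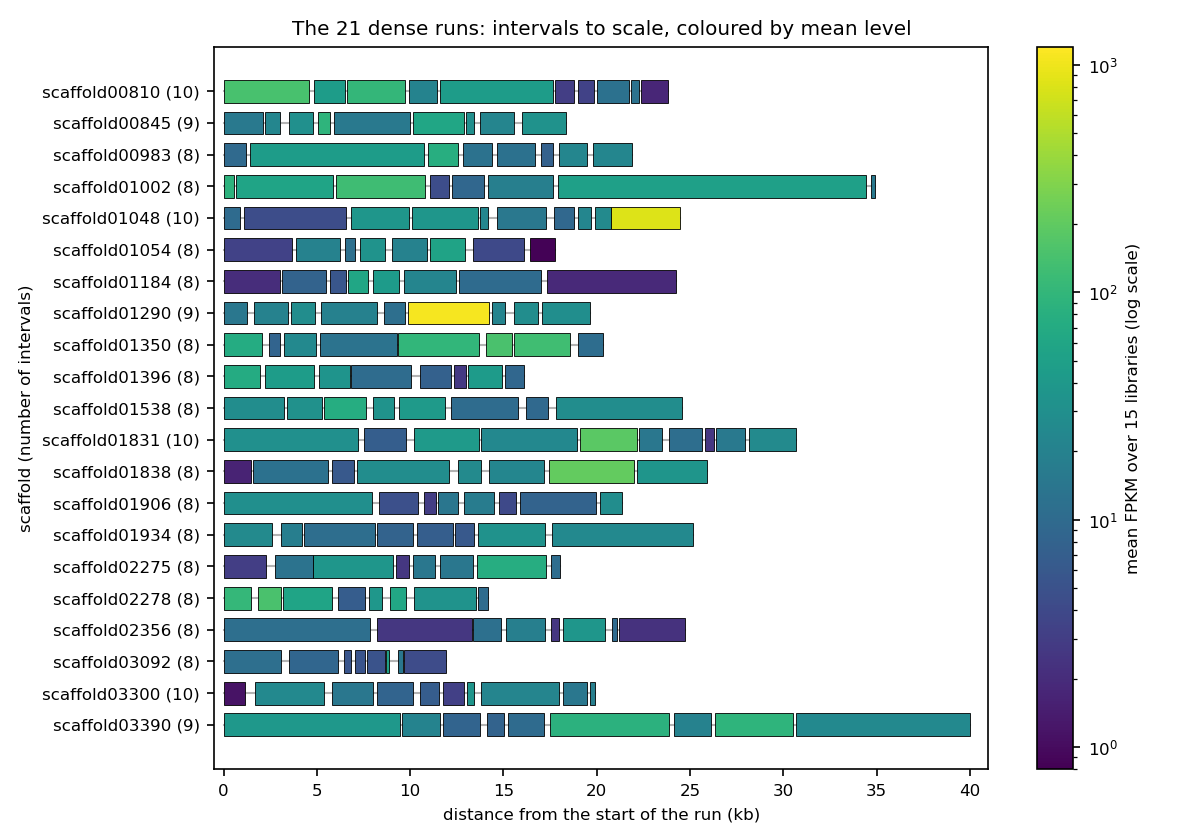
The 21 dense runs drawn to scale, 1 row per scaffold with the number of its intervals in brackets. The x axis is distance from the start of the run in kb, each box is an interval and its colour is the mean FPKM over 15 libraries on a log scale. Boxes of very different level stand side by side, as in scaffold01048, where means ran between 4.39 and 809 FPKM.

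Dense-run intervals were higher in level than isolated ones. The median level was 18.9 FPKM in dense runs, with quartiles of 8.97 and 35.7, against 6.46 FPKM in isolated intervals, with quartiles of 2.79 and 16.7. Over all tested intervals the median was 17.4 FPKM, so the dense runs lay close to the assembly as a whole and the isolated intervals below it. The median length was 1880 bp in dense runs and 1790 bp in isolated intervals. More than 1 transcript was assembled in 50.6% of dense-run intervals, against 32.1% of isolated ones and 44.9% of all. A value of 0 in at least 1 library occurred in 7.3% of dense-run intervals, against 20.2% of isolated ones and 8.46% of all. The median SD within groups was 0.249 in dense runs, 0.406 in isolated intervals and 0.298 over all. In both, the dense runs lay nearer to all intervals than the isolated ones did. None of these differences was tested.

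Members of a run did not share a level. The highest interval of a run was 5.35 to 184 times as high as its lowest, with a median of 21.8 times over the 21 runs. Neighbours inside runs differed by a median of 2.23-fold, close to the 2.3-fold of all neighbours in the assembly and to the 2.32-fold of isolated intervals and the interval after them. Pairs from different dense runs differed by 2.66-fold. The 2 runs with the most abundant intervals show this. On scaffold01048 the last of 10 intervals, at 29064 to 32758, averaged 809 FPKM, while the interval 36 bp before it averaged 25.4 FPKM. On scaffold01290 the interval at 144214 to 148566 averaged 1080 FPKM between neighbours of 11.2 and 21.9 FPKM. A mean of 100 FPKM was reached by 11 of the 178 dense-run intervals, 47 of the 560 isolated ones and 1583 of all 15438.

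Co-expression was measured as Pearson's r between 2 intervals over the 15 libraries on log2(FPKM + 1), and is a description, since all pairs share the same libraries. Neighbours inside dense runs had a median r of 0.29, with quartiles of 0.00 and 0.54 over 157 pairs. Of these pairs 33.8% were above 0.5 and 39 were below 0, with a range of -0.85 to 0.97. The median was 0.22 over the 673 pairs of any 2 intervals of a run, and 0.09 over the 15080 pairs of intervals from different runs. Intervals of a run therefore varied together somewhat more than intervals of different runs did, with wide overlap. By distance along the run the median was 0.29 for intervals 1 apart, 0.29 for 2 apart, 0.21 for 3 apart and 0.15 for 4 or more apart. This order was not kept elsewhere. Within the 9 libraries of etoposide, imatinib and control A the same 4 values were 0.12, 0.18, 0.18 and 0.08, within the 6 libraries of cisplatin and control B 0.22, 0.00, -0.03 and 0.10, and with deviations from group means 0.10, 0.05, 0.07 and 0.06.

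Neighbours under 500 bp apart that lay outside dense runs had a median r of 0.37 over 5400 pairs, and 40.5% of them were above 0.5. Within the 6 libraries of cisplatin and control B the order turned, with 0.22 in dense runs and 0.19 outside. Isolated intervals and the next interval on their scaffold, more than 2 kb away, had a median of 0.34 over 518 pairs, and isolated intervals on different scaffolds had 0.15. The median over dense-run neighbours thus lay 0.05 below that of isolated intervals and their neighbours. That order did not hold under every processing choice: the difference was 0.00 after quantile normalization, 0.16 within the 6 libraries of cisplatin and control B, and 0.01 without etoposide 3. Over all neighbours of the assembly the median r did not follow the gap in a single direction. In dense runs it was 0.45 for the 14 pairs with gaps under 100 bp, 0.30 for 100 to 250 bp and 0.27 for 250 to 500 bp. Over all neighbours it was 0.18 for gaps under 100 bp, 0.42 for 100 to 250 bp, 0.35 for 250 to 500 bp, 0.29 for 500 to 1000 bp, and between 0.24 and 0.27 beyond.

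Over the 15 libraries together, the likeness was weaker once the group means were removed. When each library's deviation from its group mean was used, the median r of dense-run neighbours was 0.10, against 0.01 for pairs from different runs, 0.22 for close neighbours outside runs and 0.13 for isolated intervals and their neighbours. After each library was centred on its own median, the values were 0.19, 0.01, 0.30 and 0.24 for the same 4 kinds of pair. Within the 9 libraries of etoposide, imatinib and control A the median of dense-run neighbours was 0.12, and within the 6 libraries of cisplatin and control B it was 0.22. Leaving out any 1 library kept it between 0.28 and 0.33.

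**Figure D2:**
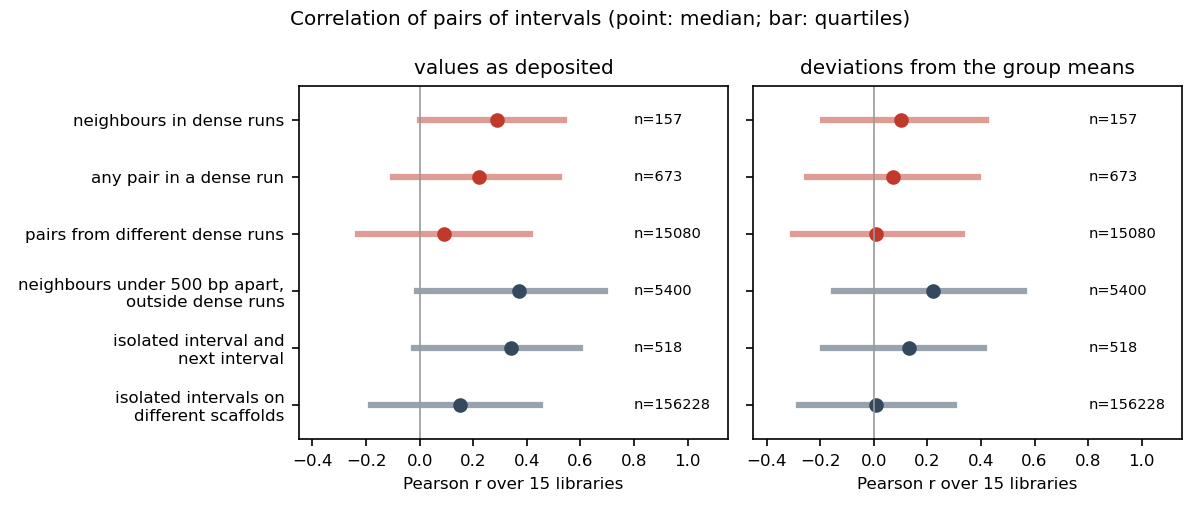
Pearson's r over the 15 libraries for 6 kinds of interval pair, with the median as a point, the quartiles as a bar and n as the number of pairs. The left panel uses log2(FPKM + 1) as deposited and the right panel uses deviations from the group means. Dense-run neighbours have a median of 0.29 on the left and 0.10 on the right, and pairs from different dense runs have 0.09 and 0.01.

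Runs differed in how closely their members moved together. The median r over all pairs of a run lay between -0.07 and 0.62, above 0 in 18 of the 21 runs and above 0.3 in 9. The order of the runs depended on the scaling. After each library was centred on its own median, scaffold02278 was highest at 0.50, from 0.16. Then came scaffold01396 at 0.44, from 0.39, and scaffold01350 at 0.33, from 0.00. Scaffold02275, scaffold03300 and scaffold03092, the highest on values as deposited, had 0.27, 0.24 and 0.26 after centring. On values as deposited, the run of 8 intervals at 5851 to 23880 on scaffold02275 had the highest median, 0.62. Of its 28 pairs, 25 were above 0 and 15 above 0.5. Without control A 1 its median was also 0.62. With deviations from group means it was 0.02, so the likeness was seen between groups and hardly within them. The interval at 19430 to 23125 shows the pattern of the run most clearly, with 31.6, 22.2 and 28.9 FPKM in etoposide, 41.7, 15 and 16.4 FPKM in imatinib and 156, 137 and 117 FPKM in cisplatin. Control A had 74.7, 65.2 and 38.8 FPKM and control B 147, 134 and 128 FPKM there, so that cisplatin and control B were high together.

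The run of 10 intervals at 2075 to 21962 on scaffold03300 came next, with a median r of 0.54. Of its 45 pairs, 40 were above 0 and 24 above 0.5. Here the likeness was found within groups as well, with a median of 0.26 for deviations from group means. The short last interval, at 21708 to 21962, had 10.2, 10.5 and 3.54 FPKM in etoposide, 19.6, 12.6 and 9.94 FPKM in imatinib, 32.9, 34.6 and 28.3 FPKM in cisplatin, 0, 5.02 and 23.8 FPKM in control A, and 17.3, 34.6 and 31.1 FPKM in control B. The interval before it, at 20274 to 21549, had its 2 lowest values in the same libraries, 2.07 FPKM in etoposide 3 and 6.01 FPKM in control A 1. Without control A 1 the median r of the run was 0.69. The run of 8 intervals at 1945 to 13879 on scaffold03092 had a median of 0.49, with 23 of 28 pairs above 0. There too the deviations from group means gave a low value, 0.09.

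At the other end, the median was -0.07 for the run at 26497 to 52420 on scaffold01838, -0.02 for the run at 13834 to 38547 on scaffold02356, and -0.01 for the run at 1885 to 36817 on scaffold01002. Leaving out any 1 library kept these 3 medians between -0.09 and 0.03. After median centring they were -0.03, -0.02 and -0.19, while scaffold01054, at 0.21 as deposited, had -0.15. On scaffold01838 the interval at 32282 to 33497 was low in etoposide, with 1.89, 4.57 and 1.18 FPKM, against 6.66, 10.1 and 9.79 FPKM in control A and 5.94, 6.78 and 7.6 FPKM in control B. Its neighbour 163 bp further on, at 33660 to 38591, held 24.5, 21.9 and 29.3 FPKM in etoposide, against 25.3, 28.6 and 27.1 FPKM in control A and 33, 32.2 and 30.7 FPKM in control B. A low interval thus stood beside one that varied far less.

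Runs of 10 intervals also differed among themselves. Besides scaffold03300, 3 runs held 10 intervals. The run at 28680 to 52479 on scaffold00810 was the single run that remained when gaps had to be under 250 bp. It had a median r of 0.48, which was 0.46 with deviations from group means and 0.23 after median centring. It divided by level: its first 5 intervals averaged 142, 44.4, 100, 21.1 and 44.2 FPKM, and its last 5 averaged 3.03, 3.4, 12.3, 12.7 and 1.75 FPKM. The runs at 8277 to 32758 on scaffold01048 and at 4673 to 35351 on scaffold01831 had medians of 0.11 and 0.08, which were 0.05 without control B 2 and -0.08 without control A 2.

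**Figure D3:**
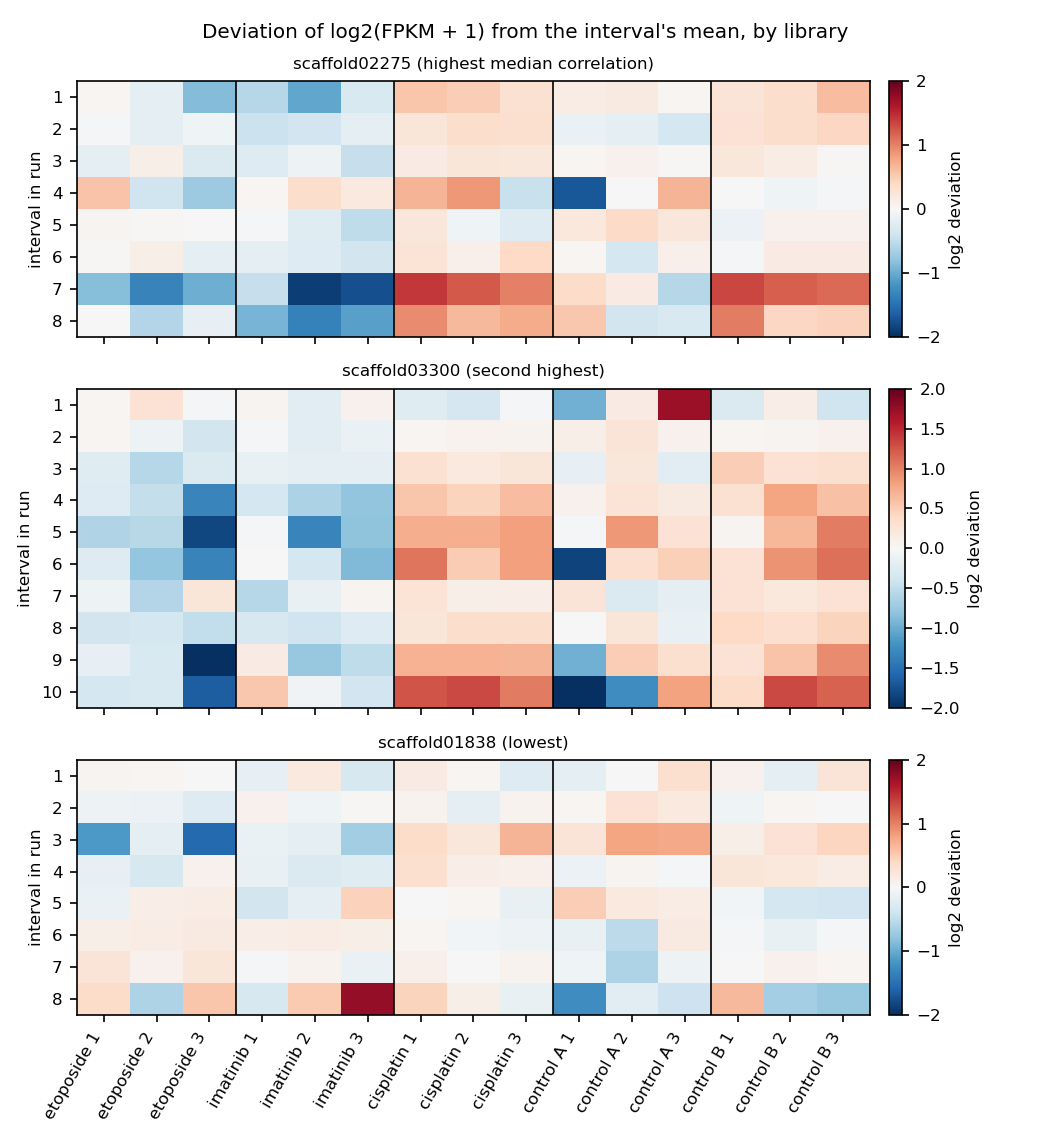
Deviation of log2(FPKM + 1) from the mean of each interval in the 15 libraries, for runs chosen by median r on values as deposited. These were the highest (scaffold02275, 0.62), the next highest (scaffold03300, 0.54) and the lowest (scaffold01838, -0.07). Rows are intervals in order along the scaffold, and colours end at 2 and -2, where larger deviations are shown in the end colour. On scaffold02275 most intervals are blue in imatinib and red in cisplatin and control B, and on scaffold01838 the rows differ.

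Group differences were tested with limma on log2(FPKM + 1), in a fit of all 15438 tested intervals with Benjamini-Hochberg adjustment at 0.05. Since no label says which unexposed set belongs to a drug, an interval was called for etoposide or imatinib where it passed against control A, and with the same sign also against control B. The comparisons share these control libraries, so calls of different comparisons are not independent. Over the whole assembly the median log2 difference of control A from control B was -0.24. The median log2 difference over all intervals was -0.21 for etoposide against control B and -0.22 for imatinib against control B. Directions given against control B include that shift.

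After etoposide, 13 of the 178 dense-run intervals fell against both control sets and 0 rose. This is 7.3% of them, against 6.79% of isolated intervals and 7.79% of all tested intervals called in either direction. Of all tested intervals 6.56% were called lower and 1.23% higher, so the share in dense runs was near the background. The median fall of the 13 was 2.08-fold against the mean of the control sets, with a range of 1.34 to 3.17-fold, and the median of all intervals called lower was 2.04-fold. The calls lay in 8 of the 21 runs. Over all 178 intervals the median log2 difference was -0.07 against control A, against -0.01 over all tested intervals, and -0.15 against control B, against -0.21 over all. With each library centred on its median the split was 3 higher and 8 lower, and with quantile normalization 2 higher and 11 lower.

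Taken singly, 29 dense-run intervals passed for etoposide against control A, 16.3% of them, against 17.2% of all, and 52 passed against control B, 29.2%, against 31.6% of all. The count against both sets rests on single libraries. It was 0 without etoposide 3, 0 without control A 2, 22 without etoposide 2 and 24 without control A 1. It was also 0 in fits of only the groups compared, and 0 where limma weighted the libraries by their spread.

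The 2 named falls were the largest among called intervals whose groups did not overlap. XLOC_013727, the interval of scaffold02275 described above, which holds 2 assembled loci, differed by -1.05 ± 0.332 from control A (log2, SE) and by -2.28 ± 0.332 from control B, with limma adjusted p-values of 0.049 and 0.00107. All 3 etoposide libraries lay below all 6 control libraries. The call was lost in 17 of 24 alternatives, with an adjusted p of 0.0521 to 0.193. These included leaving out any 1 library of etoposide, cisplatin or control B, control A 1, control A 2 or imatinib 3. The others were median centring, quantile normalization, a pseudocount of 0.1, library weights and a fit of only the groups compared. XLOC_011300, at 6908 to 10702 on scaffold01934, had 5.32, 5.89 and 1.56 FPKM in etoposide, against 6.82, 18.7 and 12.7 FPKM in control A and 13, 14.6 and 17.9 FPKM in control B. Its differences were -1.42 ± 0.385 from control A and -1.74 ± 0.385 from control B, with limma adjusted p-values of 0.0312 and 0.00577, and it was lost in 4 of 24 alternatives, among them leaving out etoposide 3 or control A 2, with an adjusted p of 0.0873 to 0.125.

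Some of the intervals called for etoposide lay side by side. Of the 13 that fell, 8 stood next to another called interval of the run, in 4 adjacent pairs, which is 61.5%. Over all 994 intervals called lower that had a neighbour, 37.5% stood next to another. Those neighbours could lie at any distance, while neighbours in a run were under 500 bp apart, so the shares do not compare like with like. Neighbouring intervals are not independent, and the difference between these shares was not tested. For falls against control B alone the shares were 60% in dense runs and 59% over all. For imatinib falls against both control sets they were 33.3% and 23.2%. Without etoposide 3, or without control A 2, 0 dense-run intervals were called for etoposide, so the adjacency rests on single libraries. The 4 etoposide pairs were on scaffold01184, scaffold01290, scaffold01934 and scaffold03300.

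The run on scaffold03300 held the most etoposide calls, 3 of its 10 intervals. Its interval at 10297 to 12245 had 6.14, 5.15 and 2.45 FPKM in etoposide, against 8.08, 9.34 and 8.76 FPKM in control A and 9.64, 13.8 and 11.9 FPKM in control B. The next, at 12596 to 13617, had 3.47, 3.6 and 0.916 FPKM in etoposide, against 5.55, 11.3 and 7.27 FPKM in control A and 6.04, 9.7 and 12.8 FPKM in control B. The interval at 15870 to 20047 had 16.6, 16.7 and 15.1 FPKM in etoposide, against 21.7, 25.8 and 19.4 FPKM in control A and 28.8, 27.7 and 29.9 FPKM in control B. In all 3 the etoposide libraries lay below every control library, and etoposide 3 was the lowest of the 15. The log2 differences from control A were -0.87, -1.36 and -0.43. Between the last 2 of them the interval at 15139 to 15509 had 32.9, 23.3 and 42.3 FPKM in etoposide, against 42.5, 28.9 and 31.2 FPKM in control A, and those groups overlapped.

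On scaffold01184 the paired falls were at 15786 to 18563, with 14.1, 16.9 and 10.4 FPKM in etoposide, against 17.7, 25.9 and 24 FPKM in control A and 23.8, 26 and 30.2 FPKM in control B. The interval 163 bp after it, at 18726 to 23170, had 4.71, 6.14 and 1.94 FPKM in etoposide, against 9.18, 14.7 and 11.9 FPKM in control A and 10.9, 12.9 and 16 FPKM in control B. Both lay wholly below the controls. On scaffold01290 the pair at 135945 to 137786 and 137950 to 139230 fell by log2 differences of -0.76 and -0.42 from control A and of -0.95 and -0.43 from control B. On scaffold01934 the interval at 5669 to 6797, 111 bp before XLOC_011300, fell by -1.04 and -1.24 on the same scale.

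**Figure D4:**
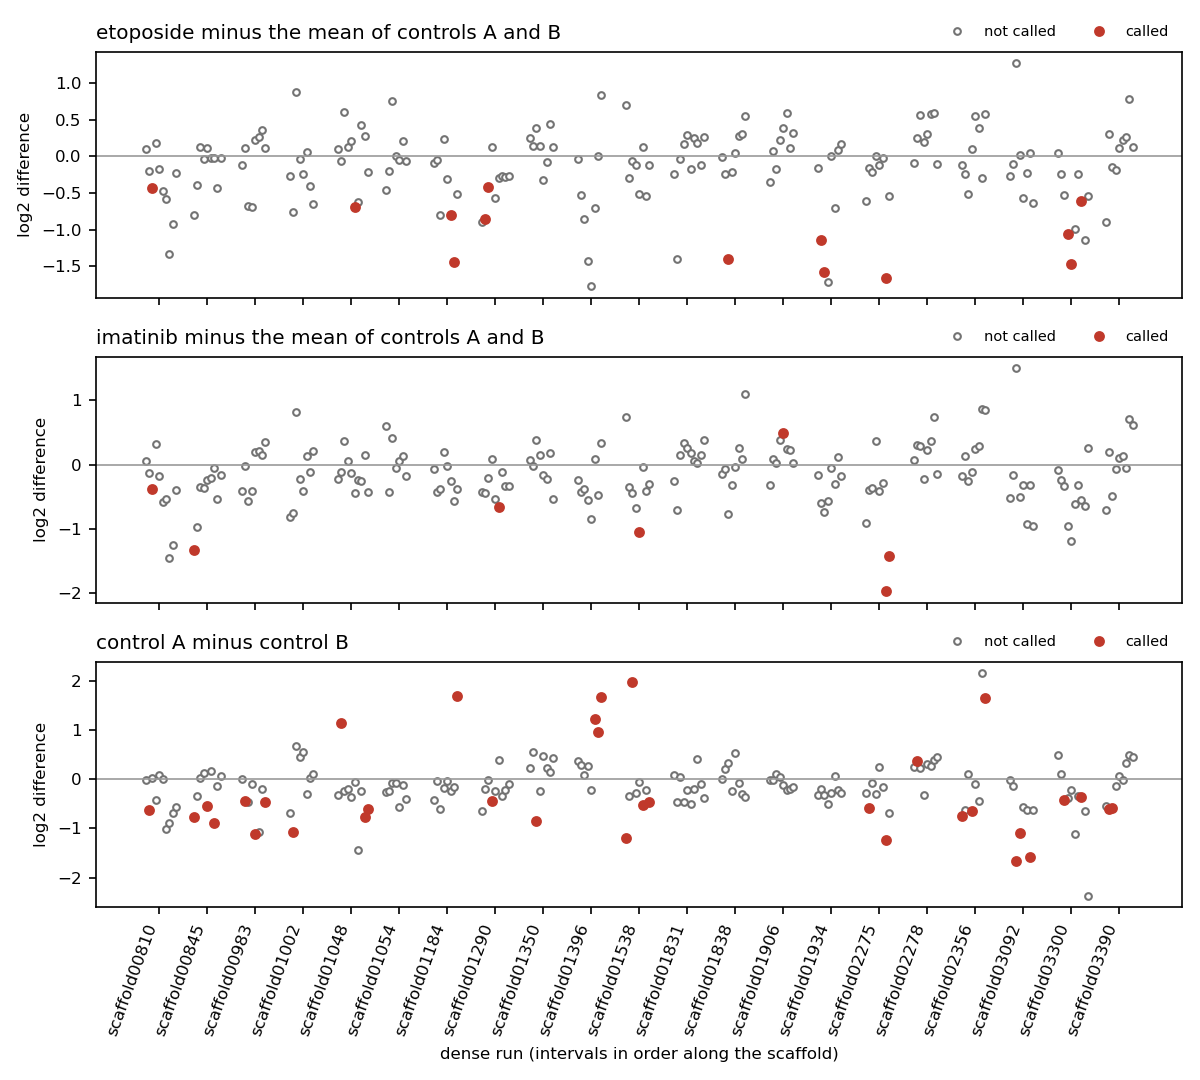
Log2 differences of each tested dense-run interval, in order along each of the 21 scaffolds, for etoposide and for imatinib against the mean of the 2 control sets and for control A against control B. Filled red points passed limma at an adjusted p of 0.05, for the drugs against each control set in the same direction. The 13 etoposide calls all lie below 0, and called points of opposite sign share a run in 3 runs of the control comparison.

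After imatinib, 6 of the 178 dense-run intervals fell against both control sets and 1 rose. Together these are 3.93% of dense-run intervals, against 0.714% of isolated intervals and 3.54% of all tested intervals. Over all tested intervals 2.86% were called lower and 0.674% higher. The dense runs were thus close to the background, and it was the isolated intervals that lay below it. The median fall was 2.27-fold, with a range of 1.3 to 3.92-fold, and that of all intervals called lower was 1.73-fold. The median log2 difference over the 178 intervals was -0.12 against control A, against 0.00 over all tested intervals, and -0.24 against control B, against -0.22 over all. Centred on library medians, the split was 2 higher and 4 lower.

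Against control A alone 16 dense-run intervals passed for imatinib, 8.99% of them, against 9.72% of all, and against control B alone 42 did, 23.6%, against 25.5% of all. The count against both sets changed with single libraries. It was 8 without control A 1, 0 without imatinib 2, 1 without imatinib 3, 2 without control A 2, 4 without control B 3 and 13 without control A 3, and 1 in a fit of only the groups compared. The 5 falls whose groups did not overlap included XLOC_013728, the last interval of the scaffold02275 run, at 23388 to 23880. It had 4.35, 2.97 and 3.81 FPKM in imatinib, against 13.8, 6.9 and 7.27 FPKM in control A and 19.8, 12.6 and 13 FPKM in control B. The differences were -1.08 ± 0.26 from control A and -1.76 ± 0.26 from control B, with limma adjusted p-values of 0.0266 and 0.000901. The call was lost in 5 of 24 alternatives, among them leaving out imatinib 2, imatinib 3 or control A 2, with an adjusted p of 0.0547 to 0.102.

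The interval 263 bp before it, XLOC_013727, also fell with imatinib, by -1.36 ± 0.332 from control A and -2.59 ± 0.332 from control B, with limma adjusted p-values of 0.0279 and 0.000453. This was the single pair of adjacent imatinib calls. Its imatinib libraries overlapped control A, since imatinib 1 at 41.7 FPKM lay above control A 3 at 38.8 FPKM. On scaffold00810 the interval at 35271 to 38403 had 88.1, 85.4 and 75.3 FPKM in etoposide and 93, 86.2 and 80 FPKM in imatinib, against 115, 116 and 109 FPKM in control A and 113, 106 and 114 FPKM in control B. It was called lower for each drug, by log2 differences from control A of -0.45 ± 0.0892 for etoposide and -0.39 ± 0.0892 for imatinib.

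XLOC_002568, at 1557 to 3661 on scaffold00845, opened its run and had 7.19, 5.19 and 7.35 FPKM in imatinib, against 12.8, 18.5 and 10.1 FPKM in control A and 24.9, 23.8 and 21.9 FPKM in control B. Its differences were -0.94 ± 0.189 from control A and -1.71 ± 0.189 from control B, with limma adjusted p-values of 0.0171 and 0.00023. It was lost in 4 of 24 alternatives, among them leaving out the same 3 libraries in turn, with an adjusted p of 0.0507 to 0.0736. The abundant interval of scaffold01290, at 144214 to 148566, had 795, 774 and 771 FPKM in imatinib, against 1730, 1430 and 1130 FPKM in control A and 1210, 1070 and 982 FPKM in control B. It fell by -0.85 ± 0.158 from control A and -0.47 ± 0.158 from control B on the log2 scale, while its neighbours on both sides were not called.

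The single rise was XLOC_011058, at 12878 to 14500 on scaffold01906. It had 20, 23.3 and 19 FPKM in imatinib, against 13.2, 14.4 and 14.0 FPKM in control A and 16.1, 14.1 and 15.2 FPKM in control B, and its groups did not overlap. The differences were 0.55 ± 0.122 and 0.43 ± 0.122, with limma adjusted p-values of 0.0212 and 0.0224, and the call was lost in 6 of 24 alternatives, among them leaving out imatinib 2, imatinib 3, control A 2, control B 2 or control B 3, with an adjusted p of 0.059 to 0.0963. Etoposide libraries had 20.4, 16.6 and 20.9 FPKM there, above every control library, but the difference from control B had an adjusted p of 0.0565. The direct comparison of etoposide with imatinib called 0 dense-run intervals, against 0% of all tested intervals. The smallest adjusted p in dense runs was 0.164, and 16 of the 178 had an unadjusted p under 0.05, as had 2036 of all 15438. Both 95% limits of the difference were inside 2-fold in 74.2% of dense-run intervals and in 65.1% of all, so smaller differences between the drugs were not resolved.

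Cisplatin against control B gave no call. Control B was chosen for cisplatin because it was the nearest control set in earlier results of these data. A lack of calls was therefore likely in advance. Of the 178 dense-run intervals, 0 were called by limma, as were 0% of all tested intervals. The smallest adjusted p was 1, and 2 dense-run intervals had an unadjusted p under 0.05, as had 153 of all 15438. The median log2 difference was 0.01, and the run medians lay between -0.06 and 0.12. Both 95% limits of the difference were inside 2-fold in 82% of dense-run intervals, in 58.8% of isolated intervals and in 75.2% of all. The fit used 1 spread for all groups, while cisplatin and control B had the smallest median SDs in dense runs, 0.118 and 0.134. The p-values and limits of this comparison thus include the spread of noisier groups. A fit of only cisplatin and control B also gave 0 calls. Against control A, 37 dense-run intervals passed for cisplatin, 20.8% of them, against 22.9% of all, and against both sets 0 did.

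Differences between the 2 unexposed sets ran in both directions. In control A, 8 dense-run intervals were higher and 26 lower than in control B. These 34 are 19.1% of the dense-run intervals, against 28.6% of isolated intervals and 24.9% of all. The median log2 difference was -0.20 in dense runs, -0.49 in isolated intervals and -0.24 over all. Over all intervals 6.89% were called higher and 18% lower. The split of the dense-run calls changed with the scaling. Quantile normalization gave 12 higher and 10 lower calls, and with median centring 17 were higher and 6 lower. Leaving out control B 3 gave 20 calls, leaving out control B 1 gave 22, leaving out control A 1 gave 41, and a fit of only these 2 groups gave 9. The calls lay in 16 runs, and in 3 runs both directions occurred.

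XLOC_008167, at 29503 to 31790 on scaffold01538, had 79.4, 208 and 195 FPKM in control A, against 38.5, 37.9 and 34.3 FPKM in control B. It was higher in control A by 1.98 ± 0.398 on the log2 scale, with a limma adjusted p of 0.00615, and passed in all 24 alternatives. Without control A 1 the difference was 2.42. Etoposide had 89.6, 104 and 37.4 FPKM, imatinib 76.6, 44.5 and 46.3 FPKM and cisplatin 36, 39.1 and 36 FPKM. The interval 92 bp before it, at 27542 to 29411, had 28.7, 35.2 and 25 FPKM in control A, against 33.8, 42.1 and 36.5 FPKM in control B, so a higher interval stood beside one that was not called. XLOC_005313, the last interval of the scaffold01184 run, had 1.67, 8.28 and 5.74 FPKM in control A, against 0.636, 0.739 and 0.733 FPKM in control B. The difference was 1.69 ± 0.383, with a limma adjusted p of 0.00981, and 2.22 without control A 1. It was lost when only the groups compared were fitted, with an adjusted p of 0.0809.

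The 2 largest falls in control A without overlap lay in 1 run, on scaffold03092. XLOC_017276, at 8371 to 8791, had 0, 0.612 and 2.95 FPKM in control A, against 4.37, 5.67 and 4.56 FPKM in control B, a difference of -1.66 ± 0.392 with a limma adjusted p of 0.0121. XLOC_017278, at 11279 to 11533, had 10.2, 1.67 and 10.2 FPKM in control A, against 17.3, 24.7 and 18.4 FPKM in control B, a difference of -1.59 ± 0.422 with a limma adjusted p of 0.0193. The value of 0 was in control A 1, and without that library the differences were -1.21 for XLOC_017276 and -1.93 for XLOC_017278. XLOC_017278 differed by -0.90 without control A 2, and its call was lost without control B 2 or control B 3, with adjusted p-values of 0.0673 and 0.0521. In a fit of only the groups compared both were lost, with adjusted p-values of 0.096 and 0.133.

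In the control comparison the run with the most higher calls was on scaffold01396, where its last 3 intervals were higher in control A. They had 5.17, 3.58 and 6.1 FPKM, 86.5, 61.5 and 54.3 FPKM, and 23.8, 12.6 and 7.85 FPKM in control A. In control B the same intervals had 1.65, 1.53 and 1.33 FPKM, 32.6, 30.9 and 37.5 FPKM, and 3.07, 3.79 and 3.63 FPKM. The log2 differences were 1.23, 0.96 and 1.68, and every control A library lay above every control B library in each of them. The first 5 intervals of that run were not called. The run with the most lower calls was on scaffold00983, where intervals at 31120 to 40480, 44405 to 46394 and 49546 to 51619 differed by -0.45, -1.12 and -0.46, and none of these 3 was next to another. Of the 26 lower calls 6 stood beside another, 23.1%, against 45.2% of all intervals called lower that had a neighbour. Of the 8 higher calls 3 did, 37.5%, against 42%. Here too the neighbours over all intervals could lie at any distance.

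**Figure D5:**
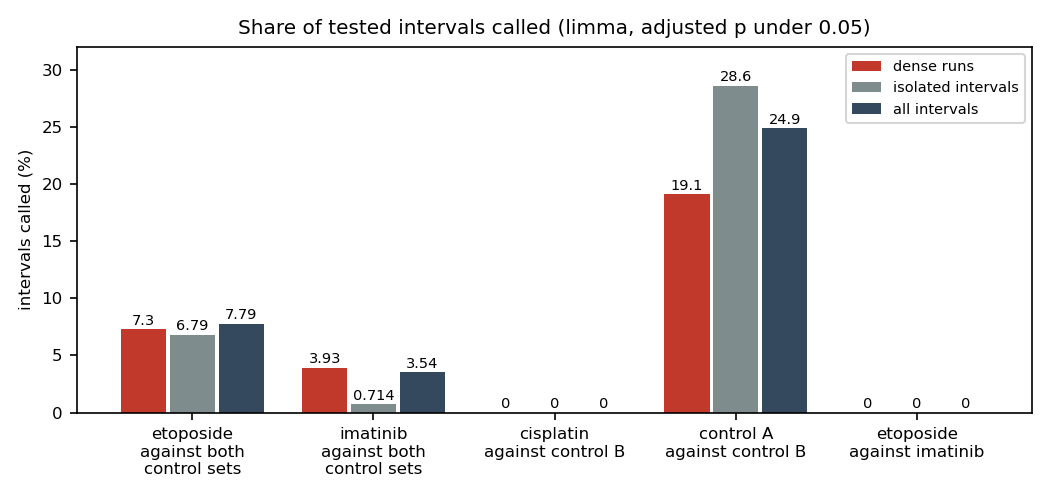
Percent of tested intervals called by limma at an adjusted p of 0.05 in dense runs (178 tested), isolated intervals (560) and all intervals (15438), for the 5 comparisons. Bars start at 0 and carry their value. Dense runs lie near all intervals for etoposide (7.3 against 7.79) and imatinib (3.93 against 3.54) and below them for control A against control B (19.1 against 24.9).

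Neighbours in a run shared the sign of their difference in 55.4% of 157 pairs for etoposide against control A, and in 54.8% for imatinib against control A. Against control B the shares were 70.1% for etoposide, 70.1% for imatinib and 54.8% for cisplatin, and control A against control B gave 69.4%. Pairs from different runs shared the sign in 49.8% to 56.2% over these comparisons. Isolated intervals and their neighbours gave 58.1%, 67.6%, 59.5%, 69.7%, 50.8% and 70.3% in the order etoposide against A and B, imatinib against A and B, cisplatin against B, and A against B. These shares were close to those inside dense runs, although the gaps were over 2 kb. The comparisons with control B share its 3 libraries and the shift of the whole assembly, so these shares are not separate observations.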

How the data were processed

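Per the labels, each of the 15 libraries took 320 ng of total RNA and was prepared with a kit for mRNA that keeps the strand. The deposited values are FPKM per assembled transcript, made by the authors. Per the submitters' processing notes, the tools were TopHat2 2.0 with Bowtie2 2.1, Cufflinks 2.2.1 with Cuffdiff, CASAVA 1.8.0 and Trim Galore. The genome build is not given in the sources used here, nor are settings or a scaling between libraries. FPKM carry no counts, relative depth was not estimated, and no counting interval is given. Positions are as deposited, and starts count from 0, since 617 intervals start at 0.

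FPKM of all transcripts at the same position were summed. Gaps were taken between consecutive intervals of a scaffold, none of which overlapped. Intervals with a mean of at least 1 FPKM were tested on log2(FPKM + 1), a scale that understates changes of low intervals, with limma 3.58.1 (R 4.3.3), using 5 group means, a trend of variance on mean, 1 spread for all groups and Benjamini-Hochberg adjustment over 15438 intervals. Other values were computed in Python 3.11.15. On simulated data for etoposide against control A, with 15438 intervals fitted, 52.2% of changes were recovered at 2-fold, 76.1% at 4-fold and 90.9% at 8-fold. There were 14 false calls. The simulation raised a small set of intervals, gave all groups the same spread, and held no shift between the control sets. Drug calls in the data had to pass against both control sets and were mostly falls, so their recovery and false calls were not measured.

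The members and the tests were chosen with earlier results of these data known. Runs were named if they had the most intervals, the highest or lowest median correlation on values as deposited, or the most calls in a comparison. Intervals named by identifier were, per comparison, the 2 largest rises and falls among called intervals without overlap of the groups. Other intervals are given by position and were chosen after their values were seen. In the labels the groups share replicate numbers. Cisplatin and control B libraries of the same number deviated together, with r of 0.25, 0.21 and 0.53. This was the single one of 10 group pairs with all 3 over 0.1. Imatinib and control B libraries of the same number deviated in opposite directions in all 3, with r of -0.41, -0.30 and -0.37. Whether libraries were paired cannot be told from these values. The values reported come from the fit without a replicate block, and the block was run as an alternative. The closest replicates differed by a median of 0.155 on the log2 scale, so no library was counted as a duplicate. Alternatives were the pseudocount, the filter, the scaling, the fit, the leaving out of each library, and the limits of the run rule.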

Additional observations from a re-analysis of the deposited data

How the results depend on the processing

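The counts of calls in dense runs changed with single libraries, and read depth is not known. Leaving out 1 library at a time gave 0 to 13.5% of dense-run intervals called for etoposide, 0 to 7.3% for imatinib, 11.2 to 23% for control A against control B, and 0 throughout for cisplatin against control B and for etoposide against imatinib. Fitting only the groups compared gave 0 for etoposide, 0.562% for imatinib and 5.06% for control A against control B, and library weights gave 0 for etoposide. Quantile normalization gave 12.4% for control A against control B. With gaps under 250 bp, which left 1 run of 10 intervals, the shares were 10% for imatinib and 10% for the control sets. No value could be given for runs of 12 or more intervals, since there were none. Here a value counts as moved when it shifted by more than 1 SD of its leave-one-out values; the cause was not tested.

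The difference in percentage points between dense runs and isolated intervals for control A against control B, -9.5, was -3.7 with library weights, -14.7 with a mean of at least 5 FPKM, -6.4 with median centring, -5.6 with a pseudocount of 0.1, -6.9 with quantile normalization, -4.1 with only the groups compared, -18.6 with gaps under 250 bp, and -10.8 to -2.9 leaving out 1 library. For imatinib, 3.2, it was 0.6 with only the groups compared, 9.3 with gaps under 250 bp and 0.0 to 5.7 leaving out 1 library. For etoposide, 0.5, it was 2.8 with runs of 5 or more, 3.2 with gaps under 250 bp, 2.3 with a scaffold end taken as open and 0.0 to 5.6 leaving out 1 library.

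The median r of dense-run neighbours, 0.29, was 0.36 with at least 5 FPKM, 0.26 with quantile normalization, 0.19 with median centring, 0.10 with deviations from group means, 0.12 within 9 and 0.22 within 6 libraries, 0.32 with runs of 5 or more, 0.52 with gaps under 250 bp, 0.31 with gaps under 1000 bp and 0.28 to 0.33 leaving out 1 library. Its difference from isolated intervals, -0.05, changed sign or vanished with quantile normalization (0.00), within 6 libraries (0.16) and with gaps under 250 bp (0.18), was -0.09 within 9 libraries, -0.02 with runs of 5 or more and -0.02 with a scaffold end taken as open, and ranged from -0.11 to 0.01 leaving out 1 library.

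The values do not settle whether libraries of the same number were paired. With the replicate number as a block, 6.74% of dense-run intervals were called for etoposide and 3.93% for imatinib. The share was 16.9% for control A against control B and 0 for cisplatin against control B. The difference from isolated intervals for the control sets was -6.9. The block ended no call of a named interval. Leaving out 1 library, the log2 difference between the control sets ranged from 1.73 to 2.42 for XLOC_008167, 1.32 to 2.22 for XLOC_005313, -2.20 to -1.21 for XLOC_017276 and -1.93 to -0.90 for XLOC_017278.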
